A study of Mus musculus with 9 samples.

Results

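Complement is a cascade of plasma and tissue proteins in which a recognition molecule switches on proteases that cleave C4, C2 and C3 and tag the surface bound. The classical route starts with C1, built from the C1q recognition molecule and the proteases C1r and C1s; the alternative route uses factor B, and C1 inhibitor restrains C1. In brain tissue C1q is made mainly by microglia and marks synapses and debris for removal, whereas astrocytes and meningeal cells can make other components. The genes described here are those of the C1q chains (C1qa, C1qb, C1qc), the C1 proteases (C1ra, C1s1), C3, C4b, factor B (Cfb) and C1 inhibitor (Serping1). They were found by matching the gene symbols of the array's annotation, which gave 7 probes for 7 of the 9 genes, 1 probe each, among 24613 probes. C3 and C4b were not analysed here. Of the 7 probes 6 passed the detection filter, and that of C1ra did not.

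RNA came from confluent primary glia of mouse pups aged P1-P3, read on 9 Illumina arrays as bead intensity. The SOD1-G93A group came from pups with mutant human superoxide dismutase 1, which causes amyotrophic lateral sclerosis (strain label B6SJL-Tg(SOD1*G93A)2Gur/J). The SOD1-WT group came from pups with the normal human gene (B6SJL-Tg(SOD1)2Gur/J), and the nontransgenic group from pups with neither (B6SJL 2Gur/J). Each group had 3 replicates, all on a B6SJL background with the meninges stripped at dissection. The labels give neither the pups' sex nor litters, pooling or the transgenes' promoter, so p-values measure the spread between these cultures only. The cultures hold several cell types, and fewer cells of a type cannot be told apart from less RNA per cell.

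The 9 arrays detected 13107 to 13618 probes each. SOD1-WT replicate 3 stood apart with a mean intensity of 279.6 units and a median bead standard error of 6.84% of the signal, against 211.3 to 235.7 units and 5.09% to 5.23% on the other 8 arrays. All 9 astrocyte markers on the array were kept, and 12 of 13 microglia and macrophage markers. Among the astrocyte markers Slc1a2 was dim, detected on 0 of 3 SOD1-G93A, 2 of 3 SOD1-WT and 3 of 3 nontransgenic arrays. Kdm5d, a Y-linked gene, was detected on the 3 SOD1-WT arrays and on none of the other 6. The list of Y-linked genes and Xist held 5 genes, of which 3 were on the array and only Kdm5d was kept. The level of Kdm5d was at least 5.04-fold higher in SOD1-WT than in SOD1-G93A glia and at least 5.05-fold higher than in nontransgenic glia. Kdm5d passed the detection filter through the SOD1-WT arrays alone, so no p-value is given for it. This reading of sex rests on 1 gene. If the pups' sex did differ between the groups, sex and the SOD1-WT group cannot be told apart in any comparison with that group.

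The levels below are log2 intensities after background correction and quantile scaling, and a change is the log2 level of the first group named minus that of the second. A probe passed the test where limma's adjusted p over all 13972 kept probes was below 0.05. Of the 6 kept complement probes 2 fell and 0 rose in SOD1-G93A against nontransgenic glia, where 10.6% of kept probes passed in either direction, 5.11% rose and 5.53% fell. Against SOD1-WT glia 2 rose and 0 fell in SOD1-G93A glia (15% of kept probes passed, and 6.91% rose). In SOD1-WT against nontransgenic glia 3 fell and 0 rose (25.3% passed, and 11.8% fell). Serping1 and C1qb were lower in both transgenic groups than in nontransgenic glia, while Cfb and C1s1 were higher in SOD1-G93A glia when set against SOD1-WT. Cfb also fell in SOD1-WT against nontransgenic glia. Neither Cfb nor C1s1 passed in SOD1-G93A against nontransgenic glia. At an unadjusted p below 0.05, limma gave 1 higher and 2 lower probes in SOD1-G93A against nontransgenic, 2 higher and 0 lower in SOD1-G93A against SOD1-WT, and 0 higher and 5 lower in SOD1-WT against nontransgenic glia. For these and later counts at an unadjusted p, the share over all kept probes is not given. They are therefore not read as a result about the genes counted. Groups did not overlap for 2 of the 6 probes in SOD1-G93A against SOD1-WT glia (30.3% of kept probes) and for 4 in SOD1-WT against nontransgenic glia (37.7%). Comparisons that share a group share its arrays, so they are not independent of each other.

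**Figure D1:**
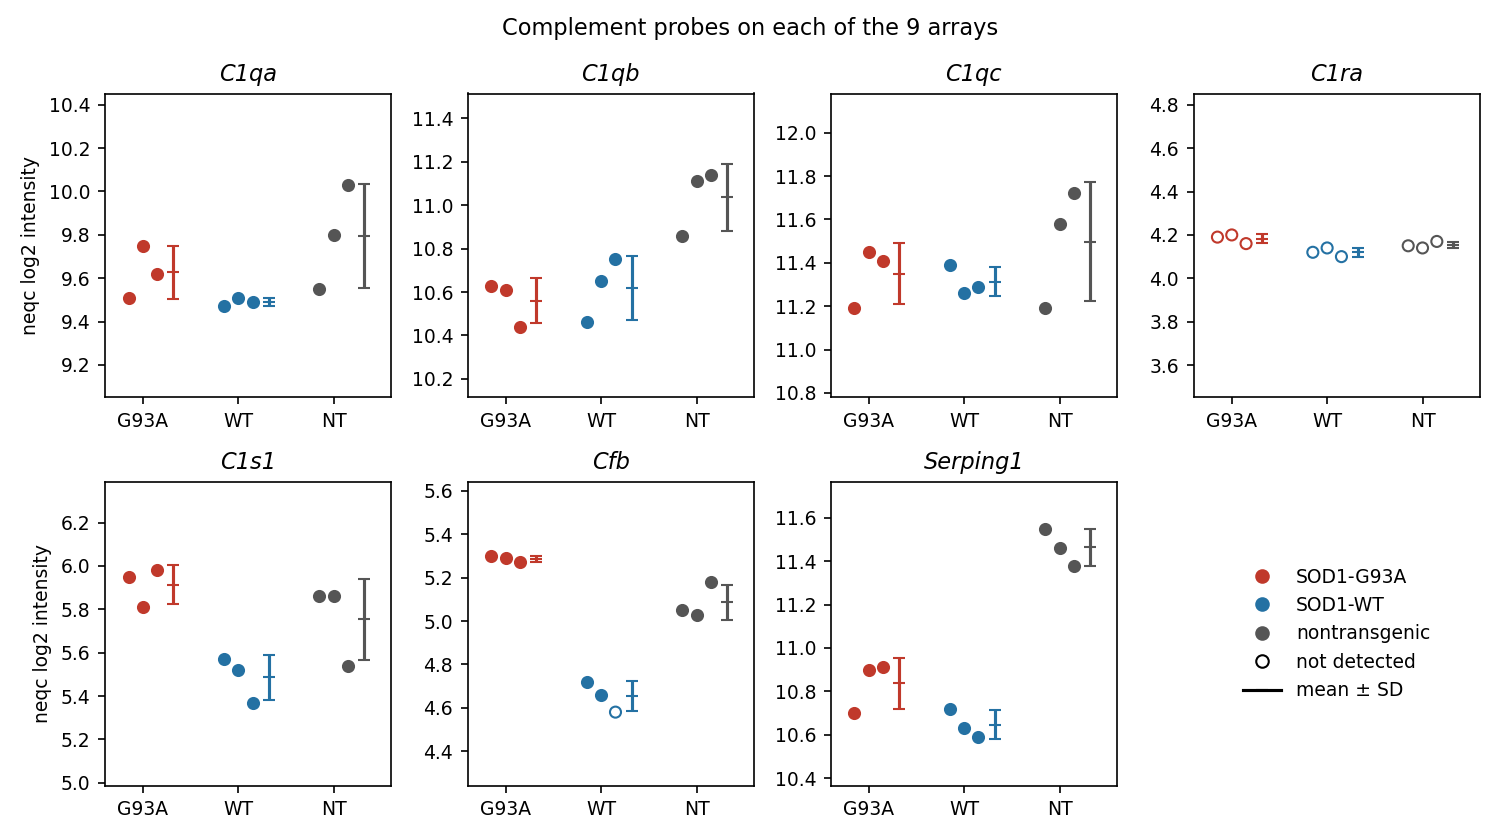
Normalised log2 intensity (y axis) of the 7 complement probes on each array, by group (G93A, SOD1-G93A; WT, SOD1-WT; NT, nontransgenic). Filled points were detected, open points were not, and bars give the mean and SD of 3 arrays. The Serping1 points of both transgenic groups lie at 10.59 to 10.91, below the nontransgenic points at 11.38 to 11.55, and all C1ra points are open.

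The 3 genes of the C1q chains lie side by side on chromosome 4, in the order C1qb, C1qc, C1qa, with no other protein-coding gene between them in the mouse RefSeq table. The promoters of C1qb and C1qc are shown because these neighbouring chain genes differed in whether they passed the test. Both are from RefSeq on build GRCm38.p6, minus strand, 250 bases up to the gene start: C1qb at chr4:136886201-136886450 and C1qc at chr4:136892915-136893164. Capitals mark matches, on either strand, to GAGGAA, a core of sites for PU.1, a myeloid transcription factor.
C1qb: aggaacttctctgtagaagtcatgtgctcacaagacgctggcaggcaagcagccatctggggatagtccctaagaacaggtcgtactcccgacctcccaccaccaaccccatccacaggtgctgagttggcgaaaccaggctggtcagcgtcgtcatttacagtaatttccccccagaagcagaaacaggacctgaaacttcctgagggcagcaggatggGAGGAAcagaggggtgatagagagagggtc
C1qc: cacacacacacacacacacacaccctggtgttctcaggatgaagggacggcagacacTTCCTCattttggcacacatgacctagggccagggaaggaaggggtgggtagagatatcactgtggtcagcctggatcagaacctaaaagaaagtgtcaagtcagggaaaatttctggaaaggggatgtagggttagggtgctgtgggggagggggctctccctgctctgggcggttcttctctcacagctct
C1qb and C1qc each held 1 match to the PU.1 core, on opposite strands. Of 32851 promoter windows of this length, 23.3% hold GAGGAA. Neither window held the core of the interferon response element (2.98% of windows) or TTCNNNGAA, a STAT site (7.02%), on either strand. A match is a description of the letters only.

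C1qb, the B chain, measured 10.63, 10.61 and 10.44 in SOD1-G93A glia, 10.46, 10.65 and 10.75 in SOD1-WT glia and 10.86, 11.11 and 11.14 in nontransgenic glia. On these scaled levels every transgenic array lay below every nontransgenic array, while the transgenic groups overlapped. Before any scaling C1qb read 2093.9 raw units on SOD1-WT replicate 3, above nontransgenic replicate 1 at 1914.1. The level fell by 0.48 on the log2 scale in SOD1-G93A against nontransgenic glia (SE 0.11, a 1.39-fold lower level, limma adjusted p = 0.0144, n = 3 per group). With SOD1-WT set against nontransgenic glia it fell by 0.42 (SE 0.11, 1.33-fold, adjusted p = 0.0148). SOD1-G93A against SOD1-WT gave -0.06, with a 95% interval of -0.31 to 0.18 (adjusted p = 0.801).

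Both C1qb calls rested on few arrays. For SOD1-G93A it missed the threshold once nontransgenic replicate 2 was dropped (-0.44, adjusted p = 0.0669), as it did for nontransgenic replicate 3 (-0.42, 0.0611) and SOD1-G93A replicate 3 (-0.42, 0.0739), and the alternatives spanned adjusted p from 0.00233 to 0.0739. For SOD1-WT the same happened on dropping nontransgenic replicate 2 (-0.38, adjusted p = 0.0608), nontransgenic replicate 3 (-0.36, 0.0622) or SOD1-WT replicate 1 (-0.34, 0.0647), and the span was 0.00388 to 0.0647. The direction was negative in every one of these fits.

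C1qa, the A chain, measured 9.51, 9.75 and 9.62 in SOD1-G93A glia, 9.47, 9.51 and 9.49 in SOD1-WT glia and 9.55, 9.80 and 10.03 in nontransgenic glia. The SOD1-WT arrays all lay just below the lowest nontransgenic array, and the SOD1-G93A arrays overlapped with both other groups. The change was -0.16 in SOD1-G93A against nontransgenic glia (95% interval -0.42 to 0.10, adjusted p = 0.501). It was -0.30 in SOD1-WT against nontransgenic glia (interval -0.56 to -0.04, adjusted p = 0.0916), which passed without nontransgenic replicate 1 (-0.42, adjusted p = 0.0217; range over alternatives 0.0217 to 0.332).

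C1qc, the C chain, measured 11.19, 11.45 and 11.41 in SOD1-G93A glia, 11.39, 11.26 and 11.29 in SOD1-WT glia and 11.19, 11.58 and 11.72 in nontransgenic glia. All groups overlapped, and nontransgenic replicate 1 was as low as the lowest transgenic array. The change was -0.14 in SOD1-G93A (interval -0.42 to 0.14, adjusted p = 0.605) and -0.18 in SOD1-WT glia (interval -0.46 to 0.10, adjusted p = 0.354), each against nontransgenic glia. Against SOD1-WT glia the SOD1-G93A changes were 0.13 for C1qa (interval -0.13 to 0.39) and 0.04 for C1qc (interval -0.24 to 0.32), and neither passed.

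All 3 chains kept 1 order on the nontransgenic arrays, with replicate 3 highest and replicate 1 lowest. The mean log2 level of the microglia and macrophage list had the same order there, at 8.80, 8.91 and 9.13 on nontransgenic replicates 1, 2 and 3. That order was not particular to this list. The endothelial list had it too, at 6.09, 6.10 and 6.16, while the astrocyte list ran the other way, at 9.83, 9.80 and 9.77. In SOD1-WT glia the microglia and macrophage list was lowest on replicate 3 (8.96), where C1qb was highest (10.75). The transgenic groups showed no such shared order of the chains.

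C1qb was set against its partner chains by the difference between 2 probes of the same array, an unequal-change measure in which a shift common to both cancels. C1qb minus C1qa averaged 0.93 ± 0.17 in SOD1-G93A and 1.25 ± 0.11 in nontransgenic glia (SD, n = 3 each), a difference of -0.31 (two-sided exact permutation p = 0.2). C1qb minus C1qc averaged -0.79 ± 0.21 in SOD1-G93A and -0.46 ± 0.12 in nontransgenic glia, a difference of -0.33 (exact permutation p = 0.2). The smallest p that 3 against 3 arrays allow is 0.1, so none of the 9 such differences could pass, and these values do not settle whether the chains changed unequally. C1qa minus C1qc differed by -0.02 between SOD1-G93A and nontransgenic glia (exact permutation p = 0.6).

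**Figure D2:**
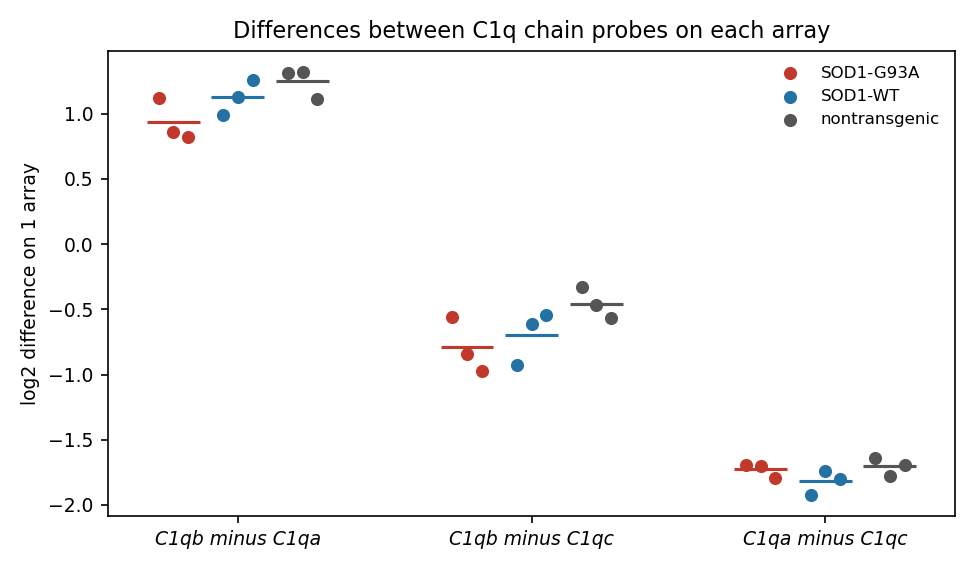
Difference in log2 intensity between C1q chain probes on the same array (y axis), for 3 chain pairs (x axis) and 3 arrays per group, with lines at group means. The SOD1-G93A means of C1qb minus C1qa (0.93) and C1qb minus C1qc (-0.79) lie below the nontransgenic means (1.25 and -0.46), with overlapping points.

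Microglia and macrophage markers are given here beside the C1q chains. With SOD1-G93A set against nontransgenic glia 2 of the 12 kept genes rose, 1 fell and 9 did not pass, with a median log2 change of 0.16 (0.01 over all genes). Of all genes 11.4% passed in this comparison. In SOD1-WT against nontransgenic glia 1 rose, 1 fell and 10 did not pass (median 0.14), where 27% of all genes passed. The summed linear level of the list was 15435 to 16842 in SOD1-G93A, 14263 to 14798 in SOD1-WT and 13181 to 15919 in nontransgenic glia. The list's brightest genes were the lysosomal membrane gene Laptm5, the Fc receptor chain Fcer1g and the protease gene Ctss. In SOD1-G93A against nontransgenic glia they changed by 0.02 (adjusted p = 0.959), 0.99 (adjusted p = 8.88e-05) and 0.21 (adjusted p = 0.527).

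Serping1 encodes C1 inhibitor, the serpin that inactivates C1r and C1s, and had the largest change of the 6 kept probes. It measured 10.70, 10.90 and 10.91 in SOD1-G93A glia, 10.72, 10.63 and 10.59 in SOD1-WT glia and 11.55, 11.46 and 11.38 in nontransgenic glia. Raw intensities were 1663 to 1912 units in SOD1-G93A, 1487 to 1876 in SOD1-WT and 2754 to 3117 in nontransgenic glia, so that both transgenic groups lay wholly below the nontransgenic arrays before any scaling. With SOD1-G93A set against nontransgenic glia it fell by 0.63 (SE 0.10, 1.54-fold, limma adjusted p = 0.000784). With SOD1-WT set against nontransgenic glia it fell by 0.82 (SE 0.10, 1.76-fold, adjusted p = 2.39e-05). Both calls held in all 18 alternatives. SOD1-G93A against SOD1-WT gave 0.19 (interval -0.02 to 0.40, adjusted p = 0.243), with overlapping arrays.

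The authors' deposited normalised intensities of Serping1 averaged 1823.7 ± 138.2 in SOD1-G93A, 1567.5 ± 68.2 in SOD1-WT and 2870.4 ± 212.7 in nontransgenic glia (SD, n = 3 each). For C1qb they averaged 1500.9 ± 114.5 in SOD1-G93A, 1538 ± 160.2 in SOD1-WT and 2151 ± 231.9 in nontransgenic glia. The order of the groups was thus the same on that scale for Serping1, and both transgenic means of C1qb again lay below the nontransgenic mean.

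Fibroblast and meninges markers also differed between the groups. All 12 kept markers fell in SOD1-WT against nontransgenic glia, with a median log2 change of -2.09, where 13% of all genes fell. In SOD1-G93A against nontransgenic glia 2 rose, 5 fell and 5 did not pass (median -0.22), where 5.21% of all genes rose and 6.22% fell. The summed linear level was 26585 to 27449 in SOD1-G93A, 5820 to 7360 in SOD1-WT and 33756 to 35881 in nontransgenic glia. The summed level was thus below the nontransgenic range in both transgenic groups and lowest in SOD1-WT glia, where Foxc2, a meningeal transcription factor, was detected on 0 of 3 arrays. The list was led by Dcn, Igf2 and Ptgds. The part of these cells in the Serping1 levels was not tested.

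The remaining marker lists also moved in part. Over all genes 11.4% passed in SOD1-G93A against nontransgenic glia and 27% in SOD1-WT against nontransgenic glia. With SOD1-G93A set against nontransgenic glia 2 of 9 astrocyte genes rose and 2 fell, 2 of 4 endothelial genes fell, 4 of 6 ependymal and choroid plexus genes rose and 1 fell, 2 of 9 oligodendrocyte lineage genes rose and 2 fell, and 0 of 5 neuron genes passed by limma (2 fell at an unadjusted p below 0.05). In SOD1-WT against nontransgenic glia 5 astrocyte genes rose and 1 fell, 1 endothelial gene rose and 1 fell, 4 ependymal genes rose and 1 fell, 1 oligodendrocyte gene rose and 2 fell, and 2 neuron genes fell. The summed astrocyte level was 24395 to 26103 in SOD1-G93A, 26829 to 29115 in SOD1-WT and 21066 to 22717 in nontransgenic glia.

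**Figure D3:**
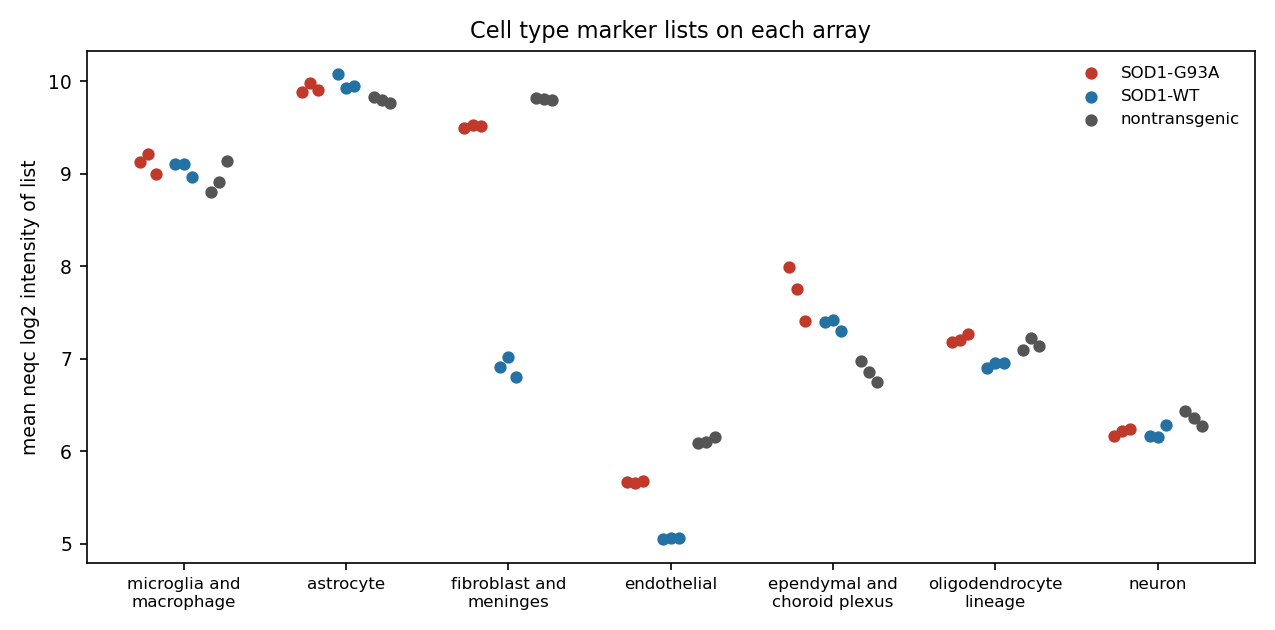
Mean normalised log2 intensity of the kept genes of 7 cell type marker lists (y axis) on each array, by group. The fibroblast and meninges list lies at 6.81 to 7.02 on the SOD1-WT arrays, against 9.49 to 9.82 on the SOD1-G93A and nontransgenic arrays, while the microglia and macrophage list overlaps between the groups.

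Cfb encodes factor B, the protease of the alternative convertase. It measured 5.30, 5.29 and 5.27 in SOD1-G93A glia, 4.72, 4.66 and 4.58 in SOD1-WT glia and 5.05, 5.03 and 5.18 in nontransgenic glia. No group overlapped with another, and SOD1-G93A glia were highest. The probe was dim, at 34.1 to 50.3 raw units against a lowest detected signal of 33.0 to 39.8 units per array, and it was not detected on SOD1-WT replicate 3. In SOD1-G93A against SOD1-WT glia Cfb rose by 0.64 ± 0.09 (SE; 1.56-fold, limma adjusted p = 0.000234). With SOD1-WT set against nontransgenic glia it fell by 0.44 (SE 0.09, 1.35-fold, adjusted p = 0.00297). SOD1-G93A against nontransgenic glia gave 0.20 (interval 0.0034 to 0.40, adjusted p = 0.218), which did not pass, although 3 of the 6 kept complement probes, Cfb among them, had groups that did not overlap in this comparison, as did 29.4% of kept probes.

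C1s1 encodes the C1s protease that cleaves C4 and C2. It measured 5.95, 5.81 and 5.98 in SOD1-G93A glia, 5.57, 5.52 and 5.37 in SOD1-WT glia and 5.86, 5.86 and 5.54 in nontransgenic glia. All SOD1-G93A arrays lay above all SOD1-WT arrays, and nontransgenic replicate 3 fell within the SOD1-WT range. In SOD1-G93A against SOD1-WT glia it rose by 0.42 ± 0.11 (SE; 1.34-fold, limma adjusted p = 0.0196). C1s1 missed the threshold once SOD1-G93A replicate 1 was dropped (0.41, adjusted p = 0.0716), and likewise for SOD1-G93A replicate 3 (0.39, 0.0759) and SOD1-WT replicate 3 (0.37, 0.0562), and the alternatives spanned 0.0117 to 0.0759. All 12 kept fibroblast and meninges markers also rose in SOD1-G93A against SOD1-WT glia (median log2 change 2.08), where 7.59% of all genes rose. The part of these markers in the C1s1 and Cfb changes was not tested.

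Against nontransgenic glia C1s1 gave 0.16 in SOD1-G93A (interval -0.08 to 0.40, adjusted p = 0.466) and -0.26 in SOD1-WT glia (interval -0.50 to -0.02, adjusted p = 0.107). The SOD1-WT difference passed without nontransgenic replicate 3 (-0.37, adjusted p = 0.0313; alternatives 0.0313 to 0.296). C1ra, the partner protease that activates C1s, was not above background on any of the 9 arrays, at 23.7 to 26.3 raw units in SOD1-G93A, 21.2 to 22.7 in SOD1-WT and 23.4 to 24.9 in nontransgenic glia. Its detection p was at least 0.515 throughout, so no change was estimated for it.

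**Figure D4:**
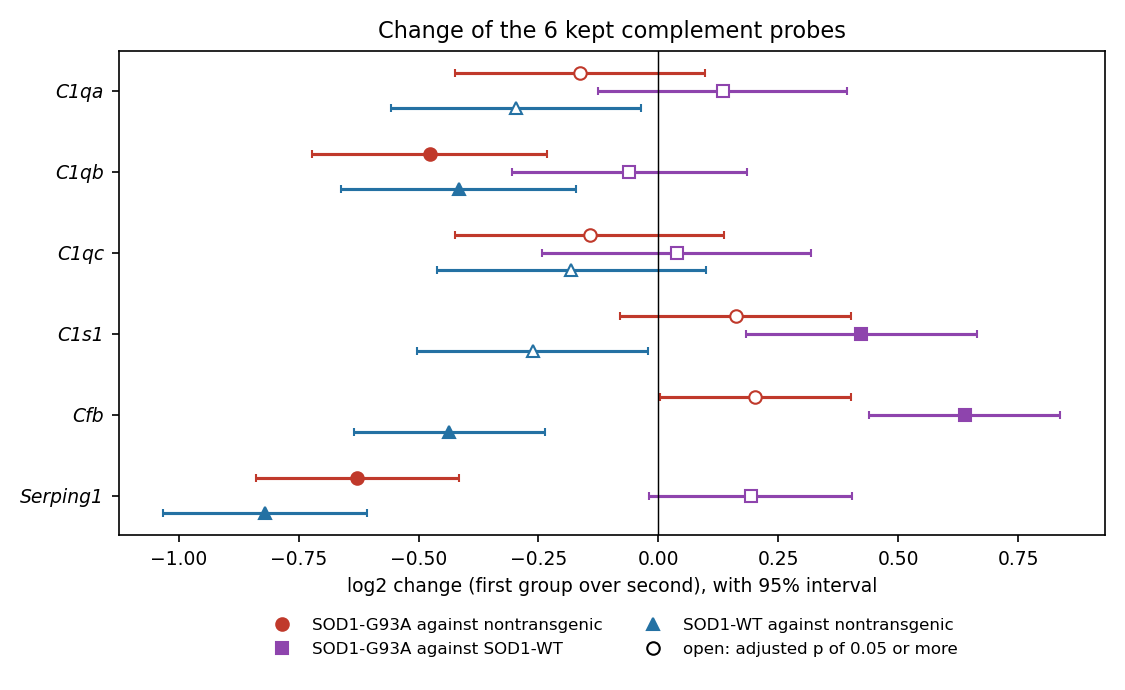
Log2 change (x axis) with its 95% interval of the 6 kept complement probes (y axis) in the 3 comparisons; filled symbols passed the test. Serping1 lies at -0.63 and -0.82 in the comparisons with nontransgenic glia, and Cfb at 0.64 in SOD1-G93A against SOD1-WT glia.

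The precision of a single array was set by its beads. The 7 probes were read by 20 to 51 beads per array, and the standard error over beads was 2.91% to 12.66% of the signal. For Serping1 it was 4.27%, 4.82% and 4.64% on the SOD1-G93A arrays, 3.52%, 3.88% and 11.2% on the SOD1-WT arrays and 2.91%, 4.72% and 3.86% on the nontransgenic arrays. These errors cover the reading of 1 array, not the spread between cultures.

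Of 50 other complement genes, listed by role, 46 had a probe and 27 a kept one. In SOD1-G93A against nontransgenic glia 2 of the 27 rose, 5 fell and 20 did not pass (5.21% of all 9842 kept genes rose and 6.22% fell; list median log2 change 0.05). Against SOD1-WT glia 7 rose, 4 fell and 16 did not pass in SOD1-G93A glia (7.59% of genes rose and 8.86% fell, with a list median of 0.22). The 4 that fell include Cpn1, which passed the detection filter through the SOD1-WT arrays alone. In SOD1-WT against nontransgenic glia 4 rose, 11 fell and 12 did not pass (14% of genes rose and 13% fell, with a list median of -0.20). The 4 that rose include Cpn1 too, and neither of its calls is read as a result. Groups did not overlap for 30.8% of all genes in SOD1-G93A against nontransgenic, 32.5% in SOD1-G93A against SOD1-WT and 39.5% in SOD1-WT against nontransgenic glia. Median changes over all genes were 0.00 to 0.01 in the 3 comparisons.

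Among recognition molecules Fcna, ficolin A of macrophages, measured 7.92, 7.78 and 8.05 in SOD1-G93A glia, 6.69, 6.48 and 6.73 in SOD1-WT glia and 8.08, 8.30 and 8.19 in nontransgenic glia. The SOD1-WT arrays stood apart below all others. Fcna rose by 1.28 ± 0.11 (SE) in SOD1-G93A against SOD1-WT glia (limma adjusted p = 1.37e-06) and fell by 1.55 in SOD1-WT against nontransgenic glia (adjusted p = 9.9e-08). Colec12, a scavenger receptor of the collectin family, gave 0.88 in SOD1-G93A against SOD1-WT glia by its brighter probe (adjusted p = 0.000324) and 0.90 by its other (adjusted p = 0.000546). Masp2, Mbl1, Mbl2, Colec10, Colec11, C1rb and C1s2, further recognition molecules and proteases, were not detected on any array.

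C2, the component that C1s cleaves to form the convertase with C4, is the gene next to Cfb on chromosome 17. It measured 7.29, 7.46 and 7.53 in SOD1-G93A glia, 5.42, 5.89 and 6.02 in SOD1-WT glia and 8.76, 8.73 and 8.51 in nontransgenic glia. No groups overlapped, with SOD1-G93A between the other 2. C2 fell by 1.24 in SOD1-G93A against nontransgenic glia (SE 0.14, 2.36-fold, limma adjusted p = 5.3e-05) and by 2.89 in SOD1-WT against nontransgenic glia (SE 0.14, 7.41-fold, adjusted p = 3.85e-09). In SOD1-G93A against SOD1-WT glia it rose by 1.65 (adjusted p = 1.73e-06). C2 and Cfb were thus both lowest in SOD1-WT glia but differed in order between SOD1-G93A and nontransgenic glia.

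Hc, the gene of C5, measured 6.40, 6.20 and 6.46 in SOD1-G93A glia, 6.84, 7.10 and 7.16 in SOD1-WT glia and 5.49, 5.48 and 5.34 in nontransgenic glia. It ran the other way from C2, being highest in SOD1-WT and lowest in nontransgenic glia. It rose by 0.92 ± 0.11 (SE) in SOD1-G93A against nontransgenic glia (adjusted p = 9.03e-05) and by 1.60 in SOD1-WT against nontransgenic glia (adjusted p = 1.04e-07). C8g, a chain of the terminal component C8, fell by 0.58 in both transgenic groups against nontransgenic glia (adjusted p = 0.00219 in SOD1-G93A and 0.000879 in SOD1-WT). C6, C8a and C9 of the terminal pathway were not detected on any array.

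Regulators moved in both directions. Cfi, factor I, which degrades C3b and C4b, measured 7.83, 8.09 and 8.04 in SOD1-G93A glia, 7.79, 8.13 and 8.04 in SOD1-WT glia and 9.04, 9.09 and 8.91 in nontransgenic glia. As with Serping1, both transgenic groups lay below all nontransgenic arrays and overlapped with each other. Cfi fell by 1.03 in each transgenic group (SE 0.11; limma adjusted p = 3.66e-05 in SOD1-G93A and 1.12e-05 in SOD1-WT). Cd55, decay-accelerating factor of the cell surface, measured 6.05, 6.29 and 5.98 in SOD1-G93A glia, 6.67, 6.66 and 6.45 in SOD1-WT glia and 7.19, 7.12 and 7.22 in nontransgenic glia. It was lowest in SOD1-G93A glia, where it fell by 1.07 against nontransgenic (SE 0.11, adjusted p = 1.54e-05) and by 0.49 against SOD1-WT glia (adjusted p = 0.0065).

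Clu, clusterin, a fluid-phase inhibitor of the membrane attack complex, rose by 0.52 ± 0.11 (SE) in SOD1-G93A (adjusted p = 0.00676) and by 1.02 in SOD1-WT glia (adjusted p = 8.17e-06), each against nontransgenic glia. Its arrays measured 12.55, 12.56 and 12.69 in SOD1-G93A, 13.10, 13.16 and 13.03 in SOD1-WT and 11.89, 12.29 and 12.05 in nontransgenic glia, with no overlap. Vtn, vitronectin, an inhibitor of the same complex, measured 8.25, 8.48 and 8.69 in SOD1-G93A glia, 5.25, 5.23 and 4.73 in SOD1-WT glia and 9.01, 9.35 and 9.25 in nontransgenic glia. It fell by 0.73 in SOD1-G93A (adjusted p = 0.00662) and by 4.13 in SOD1-WT glia (17.54-fold, adjusted p = 2.01e-10) against nontransgenic glia. Cpn1, a chain of carboxypeptidase N, which trims anaphylatoxins, was detected on the SOD1-WT arrays only. Its level there was at least 1.25-fold higher than in SOD1-G93A and nontransgenic glia. Cpn1 passed the detection filter through those arrays alone, so no p-value is given for it.

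Complement receptors did not pass the test in SOD1-G93A against nontransgenic glia, at 0 of 9 kept genes by limma, and 0 at an unadjusted p below 0.05. Of all genes 11.4% passed in this comparison, so a count of 0 among 9 genes is not read as a result about receptors. Vsig4, the C3b receptor of resident macrophages, measured 8.65, 8.55 and 8.59 in SOD1-G93A glia, 5.00, 5.17 and 5.48 in SOD1-WT glia and 8.59, 8.70 and 9.04 in nontransgenic glia. It was low in SOD1-WT glia only, 10.38-fold higher in SOD1-G93A glia by comparison (3.38 ± 0.14 SE, limma adjusted p = 8.78e-10). Cd93, once described as a C1q receptor, rose by 0.68 ± 0.10 (SE) in SOD1-G93A against SOD1-WT glia (adjusted p = 0.000206). The fibroblast and meninges markers, like C2, Vtn, Fcna and Vsig4, were lowest in SOD1-WT glia, and their part in those changes was not tested. With SOD1-WT set against nontransgenic glia the receptors had 1 gene higher, 3 lower and 5 that did not pass (27% of all genes passed).

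**Figure D5:**
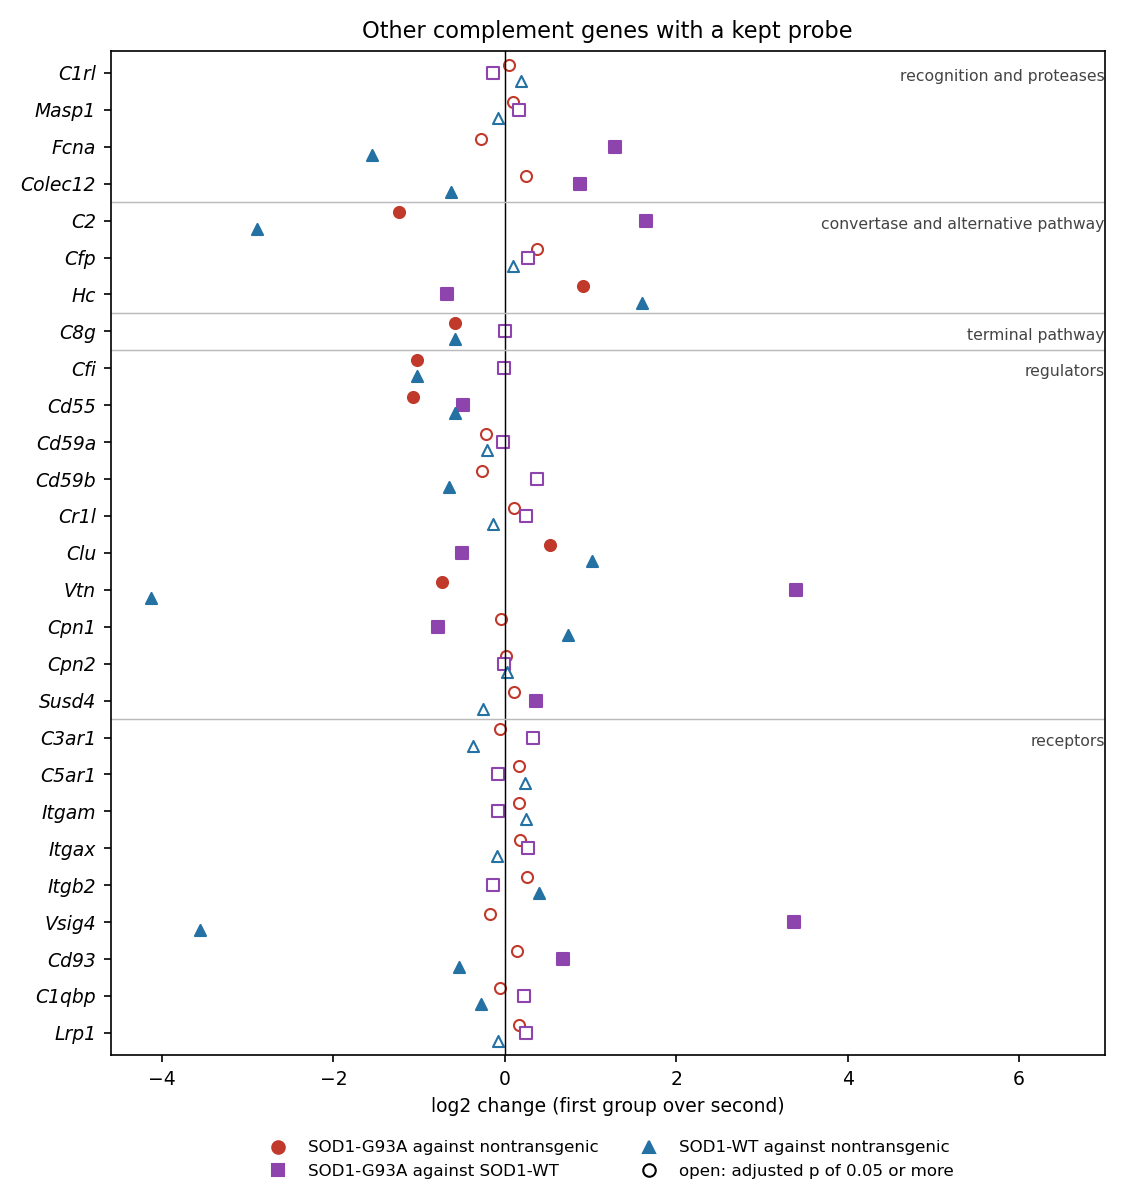
Log2 change (x axis) of the 27 other complement genes with a kept probe (y axis), by role, in the 3 comparisons. Filled symbols passed the test. Filled symbols of Cpn1 are not read as a result, since it passed the detection filter through the SOD1-WT arrays alone. Vtn, Vsig4 and C2 lie farthest to the left in SOD1-WT against nontransgenic glia, at -4.13, -3.55 and -2.89, and Hc and Clu to the right at 1.60 and 1.02.

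Genes of interferon and acute-phase responses were listed because these responses are known to raise Cfb, Serping1 and C1s1 transcripts. With SOD1-G93A set against nontransgenic glia 2 of 16 kept genes rose, 1 fell and 13 did not pass (median log2 change 0.15). Against SOD1-WT glia 3 rose, 4 fell and 9 did not pass in SOD1-G93A glia (median 0.13). In SOD1-WT against nontransgenic glia 4 rose, 2 fell and 10 did not pass (median 0.05). Over all genes 11.4%, 16.4% and 27% passed in these comparisons, in that order.

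Protein-coding genes within 3 places of the members were examined after values had been seen. Over all genes 5.21% rose and 6.22% fell in SOD1-G93A against nontransgenic glia. In SOD1-WT against nontransgenic glia 14% of all genes rose and 13% fell. With so few neighbours, their counts are not read as a result about them. Of the 6 kept neighbours of Cfb, 0 rose and 2 fell in SOD1-G93A against nontransgenic glia, namely C2 and Zbtb12, a zinc finger gene (-0.69, adjusted p = 0.000515). With SOD1-WT set against nontransgenic glia 2 of the 6 rose and 1 fell, with Zbtb12 at 0.66 (adjusted p = 0.000259), opposite in sign to Cfb and C2. Of the 4 kept neighbours of Serping1, 0 passed in SOD1-G93A against nontransgenic glia by limma (0 at an unadjusted p below 0.05) and 3 fell in SOD1-WT against nontransgenic glia: Zdhhc5 (-0.45, adjusted p = 0.0133), Clp1 (-0.47, adjusted p = 0.041) and Ube2l6 (-0.32, adjusted p = 0.049).

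For each member that passed a test, the most similar genes were sought by the root mean square difference of centred log2 levels over the 9 arrays. Nearest to Serping1 were Baiap2l1 (0.08), Deptor (0.08) and Scarf2 (0.09), each lower in both transgenic groups. Nearest to Cfb were Mgmt (0.08), Cd93 (0.09) and Aoah (0.09), with SOD1-G93A means above SOD1-WT means by 0.50, 0.68 and 0.65. C1qb was closest to Zfp324 (0.08), Nckap1l (0.09) and Phtf2 (0.09), and C1s1 to Cdc42bpg (0.08), Msrb3 (0.08) and Ptprm (0.09). Likeness over 9 arrays in 3 groups is a description of these arrays.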

How the data were processed

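The members and lists were chosen with earlier results of these data known. The authors deposited a table of raw bead intensity per probe and array with bead numbers, bead standard errors and detection p-values, per the file headers, and a table of normalised intensity. BeadStudio is named in the submitters' processing notes; its version, the normalisation and a genome build are not given in the sources used here. Groups were taken from the labels. Raw intensities were corrected and scaled with limma 3.58.1 (neqc: normexp with negative controls inferred from the detection p-values, offset 16, quantile, log2) in R 4.3.3. Probes with a detection p-value under 0.01 on at least 3 of 9 arrays were kept (13972 of 24613). One limma model with 3 groups gave all comparisons, with Benjamini-Hochberg adjustment over the kept probes and a threshold of 0.05. A gene with several probes was taken by its brightest kept probe. The procedure was tested on simulated data. Differences within arrays were compared by exact permutation tests, where 3 against 3 arrays limit the precision. "At least" folds stand where a gene was undetected on all arrays of a group: the brighter group's mean is set against, per array, the higher of the lowest detected signal and the probe's own.

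Every probe of the members is named. Of the complement lists, genes that passed are named, up to 8 per comparison by smallest p, and of each marker list its counts and brightest genes. For each member that passed, the 3 genes with the smallest root mean square difference are named. Kdm5d and the gene neighbours were added after values had been seen. Alternatives dropped the background correction, scaled by medians, changed the detection filter, weighted arrays, used a variance trend with robust priors, fitted only the groups compared, blocked on replicate number, left out each array, or used the authors' deposited normalised intensities with a constant added. Slide as a block was not run because the headers name no slide.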

Additional observations from a re-analysis of the deposited data

How the results depend on the processing

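Over the 18 member changes under 18 alternatives, 321 values were obtained: 310 kept their side of the threshold, 9 lost the call, 2 gained one, and 0 changes that passed took the opposite sign. The count of member probes that passed in SOD1-G93A against nontransgenic glia ranged from 1 to 2 when single arrays were left out, and in SOD1-G93A against SOD1-WT glia likewise from 1 to 2. In the second comparison it was also 1 with probes detected on all 9 arrays, since Cfb was then not tested. For SOD1-WT against nontransgenic glia it ranged from 2 (without nontransgenic replicate 2 or SOD1-WT replicate 1) to 4 (without nontransgenic replicate 1), against 3 with all arrays, and was 2 with probes detected on all 9 arrays. Replicate numbers recur in the 3 groups. Same-number pairs correlated at -0.02 to 0.15, with 3 of 9 above 0.1, and different-number pairs at -0.20 to 0.19. These values do not settle whether the numbers pair the cultures, and the main model had no block. With the replicate block 1526 kept probes passed for SOD1-G93A over nontransgenic glia (1487 without it), 2189 for SOD1-G93A over SOD1-WT (2102) and 3633 for SOD1-WT over nontransgenic (3539), and the members that passed stayed at 2, 2 and 3. Signal over background limits Cfb, which was not detected on 1 SOD1-WT array, and C1ra, which was not detected on any. The causes of these shifts were not tested, other than that each left-out array leaves fewer samples.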
